A study of Mus musculus with 9 samples.

Results

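A set of 10 transcription factor genes that act in blood stem and progenitor cells and are linked to T cell acute lymphoblastic leukaemia (T-ALL) was followed in a mouse model of β-catenin-driven thymic lymphoma. They were Lyl1, Tal1, Lmo2, Erg, Spi1, Mef2c, Bcl11a, Hhex, Meis1 and Hoxa9. Members were every probe set whose single gene symbol was 1 of these 10 names, which gave 24 of 45037 probe sets and 10 of 18193 named genes. The array carried 7 probe sets for Bcl11a, 5 for Mef2c, 3 for Meis1, 2 each for Erg and Hoxa9, and 1 for each of the other genes.

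RNA came from the thymus of C57Bl/6 mice, 1 oligonucleotide array for each of 9 animals. Every animal was R26NC/NC, carrying an activated form of β-catenin at the Rosa26 locus on both alleles, which Cre switches on, so the control animals carried the silent transgene too. The 2 controls were CD4Cre- and the 3 pre-transformed animals were CD4Cre+, and both gave CD4+CD8+ double-positive (DP) thymocytes sorted to over 98% purity at 6 weeks of age. The 4 tumours were whole, unsorted thymic lymphomas of CD4Cre+ animals, stated to hold at least 95% CD4+CD8+ cells, taken at 28, 26, 23 and 21 weeks of age (tumours 1 to 4). A Cre driven by Cd4 acts in DP cells and in the CD4 and CD8 cells that descend from them. Labelled RNA of the sorted cells was made with an amplification kit from 0.1 µg, and that of the tumours by the standard Affymetrix method from 2.5 µg. Labelling, sorting, age and transformation therefore all separate tumours from sorted cells and cannot be told apart.

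During normal T cell development these factors are used before commitment to the T lineage and are then shut off, so that a DP thymocyte is expected to hold little of their RNA. LYL1 and TAL1 are basic helix-loop-helix (bHLH) proteins that pair with E proteins and bind DNA motifs called E-boxes, and LMO2 is a LIM-only protein that bridges them to LDB1 and GATA factors. SPI1 (PU.1) and ERG are ETS factors, MEF2C is a MADS-box factor, BCL11A is a zinc finger repressor, HHEX is a homeobox factor, and HOXA9 and MEIS1 are homeobox factors that bind DNA together. Several of them are also normal products of other blood cells: SPI1, LYL1, LMO2 and MEF2C occur in myeloid cells, and SPI1, BCL11A, MEF2C and HHEX occur in B cells.

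The start-site regions of the 4 genes below are shown because their tumour signals were higher than those of sorted cells. They come from RefSeq on build GRCm38.p6, which held 13 such regions for 8 of the 10 genes, each running from 250 bases before to 50 bases after a start and read 5′ to 3′ along the gene. Each was searched on both strands for 4 motifs, shown in capitals where found: the E-box CAGNTG, the GATA site AGATAA, the ETS site GGAAGT and the TCF/LEF site CTTTGNT, through which β-catenin reaches DNA. No overlap between different motifs occurred in the regions shown.
Lyl1, chr8:84701207-84701506, plus strand: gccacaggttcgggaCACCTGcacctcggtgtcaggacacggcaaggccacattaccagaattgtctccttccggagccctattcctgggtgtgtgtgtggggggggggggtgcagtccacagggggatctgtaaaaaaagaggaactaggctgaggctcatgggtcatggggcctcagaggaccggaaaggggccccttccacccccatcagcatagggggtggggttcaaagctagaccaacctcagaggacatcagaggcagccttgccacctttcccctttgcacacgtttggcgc
Mef2c start 1, chr13:83503784-83504083, plus strand: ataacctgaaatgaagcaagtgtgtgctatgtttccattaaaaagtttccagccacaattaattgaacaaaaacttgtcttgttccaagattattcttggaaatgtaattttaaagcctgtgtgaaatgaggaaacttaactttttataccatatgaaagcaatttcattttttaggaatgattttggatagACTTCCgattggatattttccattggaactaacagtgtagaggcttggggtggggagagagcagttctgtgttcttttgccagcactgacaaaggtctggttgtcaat
Mef2c start 2, chr13:83523406-83523705, plus strand: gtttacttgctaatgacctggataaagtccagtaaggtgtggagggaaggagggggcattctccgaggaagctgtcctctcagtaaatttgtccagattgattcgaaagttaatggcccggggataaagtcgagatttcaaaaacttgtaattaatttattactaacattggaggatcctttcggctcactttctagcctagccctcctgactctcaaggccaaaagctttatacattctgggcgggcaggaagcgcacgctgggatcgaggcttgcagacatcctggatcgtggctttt
Mef2c start 3, chr13:83573357-83573656, plus strand: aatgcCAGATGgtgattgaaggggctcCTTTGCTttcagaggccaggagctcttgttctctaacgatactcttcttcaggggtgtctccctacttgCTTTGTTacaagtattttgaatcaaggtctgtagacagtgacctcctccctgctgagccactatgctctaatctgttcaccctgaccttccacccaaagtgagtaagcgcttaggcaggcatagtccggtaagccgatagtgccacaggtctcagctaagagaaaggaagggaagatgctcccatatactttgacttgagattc
Hhex, chr19:37434591-37434890, plus strand: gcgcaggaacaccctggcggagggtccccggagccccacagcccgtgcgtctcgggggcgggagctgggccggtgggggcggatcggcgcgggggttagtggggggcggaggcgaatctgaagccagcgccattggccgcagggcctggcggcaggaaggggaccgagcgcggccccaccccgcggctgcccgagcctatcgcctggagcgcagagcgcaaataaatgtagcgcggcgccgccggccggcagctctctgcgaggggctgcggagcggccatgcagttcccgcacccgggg
Hoxa9, chr6:52227321-52227620, minus strand: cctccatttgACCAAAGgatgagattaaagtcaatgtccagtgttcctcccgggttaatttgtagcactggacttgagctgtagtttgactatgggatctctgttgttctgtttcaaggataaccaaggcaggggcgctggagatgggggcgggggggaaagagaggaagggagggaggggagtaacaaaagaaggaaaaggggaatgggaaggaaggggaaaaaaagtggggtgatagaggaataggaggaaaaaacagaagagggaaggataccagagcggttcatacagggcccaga
The Lyl1 region held 1 E-box, whose first base lay 235 bases before the start. Of the 3 Mef2c regions, the first held 1 ETS site, the second held none of the 4 motifs, and the third held 1 E-box and 2 TCF/LEF sites. The Hoxa9 region held 1 TCF/LEF site and the GC-rich Hhex region (75.7% G and C) held none. Such matches are common: among 32851 start-site regions of the same length, 51.4% held the E-box, 11.2% the GATA site, 23.8% the ETS site and 18.6% the TCF/LEF site. A match is a stretch of letters and not a measured binding site, and factors were not measured on DNA here.

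Signals are MAS5 values on a linear scale, on which each array was scaled to the same trimmed mean of 100. The median of an array lay between 9.9 and 15.2, and 65% of the probe sets of an array lay under 28.6 to 44.6. A group was called dim for a gene where its geometric mean was under the geometric mean of its arrays' 65th percentiles, which was 40.8 for controls, 43.8 for pre-transformed cells and 35.9 for tumours. As a mark of background, 27 probe sets for bacterial transcripts reached at most 2.4 to 5.0 on the sorted arrays and 7.8 to 13.9 on the tumour arrays. As a check of the labelled DP identity, Cd4, Cd8a and Rag1 read at least 520.2 on every array. The 12 DP markers on the array summed to 35489 to 40672 in sorted cells but only to 17130 to 22391 in tumours. Against pre-transformed cells, 11 of the 12 fell in tumours, beside 31.0% of all genes tested (median log2 change -1.65). Ptcra lay under the array median in all 4 tumours. In whole tumours, fewer cells of a type and less RNA per cell cannot be told apart.

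All 10 genes were dim in DP cells of both genotypes. Spi1 and Meis1 exceeded the array's highest bacterial signal on all 5 sorted arrays and Lyl1 did on 4 of them, while the other tested genes did so on 1 to 3 and Erg on none. The highest signal of any of the 24 probe sets on any of the 5 sorted arrays was 13.6, for Lyl1 in control 1, and no gene reached the 65th percentile on a sorted array. In tumours the highest signal was 100, again for Lyl1, and 4 genes (Lyl1, Lmo2, Spi1 and Mef2c) reached the 65th percentile on 2 of the 4 tumour arrays each. Tests covered genes with a probe set at or above the array median on at least 2 arrays, which 12 of the 24 probe sets and 8 of the 10 genes passed. Tal1 and Erg did not pass. Of the 8 tested genes, 6 had no sorted array at or above the median and so passed through their tumour signals alone.

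**Figure D1:**
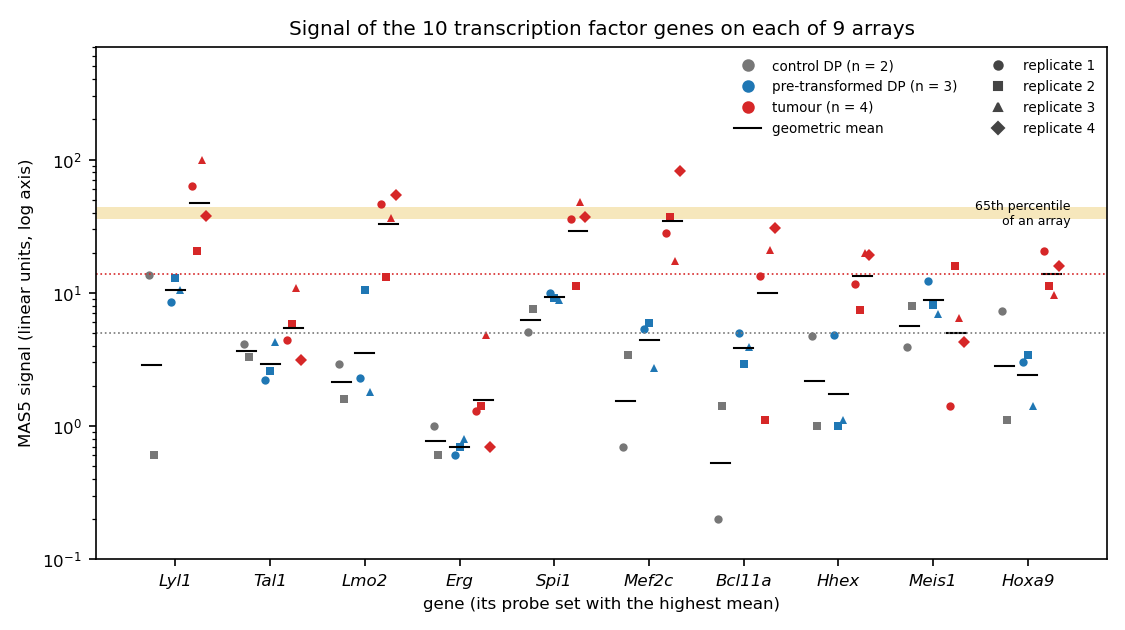
Signal of each of the 10 genes (probe set with the highest mean) on each of 9 arrays, on a log axis in MAS5 units. Points are arrays, black bars are geometric means, the band spans the 3 groups' 65th percentile levels (35.9 to 43.8), and dotted lines mark the highest bacterial probe set on any sorted (grey, 5.0) and any tumour (red, 13.9) array. With the probe sets shown, Lyl1, Lmo2, Spi1, Mef2c, Hhex and Hoxa9 have all 4 tumours above all 5 sorted arrays, as have 21.9% of all genes tested. Tal1, Erg, Bcl11a and Meis1 do not.

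The state before transformation was examined by comparing the 3 pre-transformed with the 2 control samples. Only the pre-transformed animals carried CD4Cre, so active β-catenin and Cre itself cannot be told apart. No gene of the 10 was called higher or lower (limma, 8 tested, adjusted p under 0.05 over 11644 genes, 1.11% of which were called higher and 0.524% lower). Bcl11a was the only tested gene with an unadjusted p under 0.05. Its signals were 0.2 and 1.4 in controls and 5.0, 2.9 and 3.9 in pre-transformed cells. The groups did not overlap, but no value exceeded 5.0, the highest bacterial signal on any sorted array (unadjusted p = 0.0266, limma adjusted p = 0.217, log2 difference 2.86 ± 1.06, SE). Set against the highest bacterial signal of its own array, only the value of pre-transformed 3 was above it (3.9 against 2.4). The other 6 Bcl11a probe sets read at most 3.8 in controls and 3.5 in pre-transformed cells. Spi1 was the other gene whose groups did not overlap, at 5.1 and 7.6 in controls against 8.8 to 10 in pre-transformed cells (log2 difference 0.58 ± 0.42, limma adjusted p = 0.516). With 2 control arrays, the spread of some genes was wide: Lyl1 read 13.6 in control 1 and 0.6 in control 2.

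In tumours, 5 of the 8 tested genes were higher than in pre-transformed cells: Lmo2, Mef2c, Hhex, Hoxa9 and Spi1 (limma, adjusted p under 0.05). None was lower. Against controls 6 were higher, namely Mef2c, Lmo2, Lyl1, Spi1, Bcl11a and Hhex, and none was lower. Of all 11644 genes tested, 23.9% were called higher and 31.0% lower against pre-transformed cells, and 20.5% higher and 25.2% lower against controls. Of the 10 genes, 8 (all but Lyl1 and Meis1) lay under the median on all 5 sorted arrays, as did 7240 genes in all when no filter was set. Of the 8, 5 were called higher against pre-transformed cells in that unfiltered fit, and of the 7240, 17.1% were. All 4 tumours lay above all 5 sorted arrays for 5 of the 8 genes and for 18.2% of the 7240. Both comparisons share the 4 tumours, and every gene but Lyl1 was dim on both sides, so no fold is given. The log2 differences below state the tested quantity. Where sorted signals lie at or under the bacterial level, their size depends on values near background and gives no measure of how much RNA changed. When all signals under 40 were set to 40, no gene of the 10 was called in any comparison. Without pre-transformed 3 the count against pre-transformed cells was 2, and without pre-transformed 2 it was 3.

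LYL1, TAL1 and LMO2 form the bHLH and LIM-only core of the progenitor complex. Lyl1 read 13.6 and 0.6 in controls, 8.5, 12.8 and 10.4 in pre-transformed cells and 63.8, 20.4, 100 and 37.9 in tumours 1 to 4. All 4 tumours were above every sorted array, with tumour 3 highest and tumour 2 lowest. Against controls Lyl1 rose (log2 difference 4.04 ± 1.05, SE, limma adjusted p = 0.0113), which is at least 1.15-fold when the dim control level is set at its 65th percentile. Without control 2, whose signal was 0.6, the difference was 1.79 and the adjusted p 0.117. Against pre-transformed cells the difference was 2.18 ± 0.93 (limma adjusted p = 0.0701), or at least 1.08-fold. It passed the threshold when either control array was left out of the shared estimate of spread (adjusted p = 0.0106 and 0.00841) and when tumour 2 was left out (0.0403). Lyl1 was the only gene of the 10 whose tumour mean, 47.1 (log2 SD 0.99, n = 4), was above the 65th percentile.

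Lmo2 read 2.9 and 1.6 in controls, 2.3, 10.4 and 1.8 in pre-transformed cells, and 46.0, 13.1, 36.4 and 54.3 in tumours. Its tumours again lay wholly above the sorted arrays, and tumour 2 was again the lowest, near pre-transformed 2. The log2 difference was 3.24 ± 0.74 (SE) against pre-transformed cells and 3.94 ± 0.84 against controls (limma adjusted p = 0.0043 and 0.00412). Of the 21 other settings tried, both calls were lost only under the common floor of 40. Tal1 behaved differently in these arrays. It read 4.1 and 3.3 in controls, 2.2, 2.6 and 4.3 in pre-transformed cells and 4.4, 5.8, 10.9 and 3.1 in tumours, never reaching the median of an array. Its tumours overlapped the sorted arrays, and of the tumours only tumour 3, at 10.9, exceeded its array's highest bacterial signal, which was 10.8. The TAL1 relative Tal2 and the LMO2 relative Lmo1 were also under the median on all 4 tumours.

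The ETS members split in the same manner. Spi1, a regulator of myeloid and B cell fate that early T progenitors switch off, read 5.1 and 7.6 in controls and 10, 9.2 and 8.8 in pre-transformed cells. In tumours it read 35.7, 11.2, 47.8 and 36.8. Tumours 1, 3 and 4 lay well above the sorted arrays, while tumour 2 exceeded the highest sorted array by little. Spi1 rose by a log2 difference of 1.64 ± 0.51 against pre-transformed cells and 2.22 ± 0.58 against controls (limma adjusted p = 0.0208 and 0.0114). The first call was lost without any single pre-transformed array (adjusted p = 0.0504 to 0.0623) and the second without control 1 (0.102). Erg, whose product maintains blood stem cells, read at most 1.0 and 1.1 on the sorted arrays with its 2 probe sets and 4.8 in tumours. No Erg value reached the highest bacterial signal of its array.

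Mef2c, a factor of myeloid, B cell and early lymphoid progenitors, rose with 5 of 5 probe sets. The probe set with the highest mean, 1424852_at, read 0.7 and 3.4 in controls, 5.3, 5.9 and 2.7 in pre-transformed cells, and 27.9, 36.8, 17.3 and 82.1 in tumours. Mef2c was highest in tumour 4, as Lmo2 was, but tumour 2 ranked second for it and tumour 3 was the lowest. The difference was 2.99 ± 0.71 against pre-transformed cells and 4.49 ± 0.80 against controls (limma adjusted p = 0.00534 and 0.00173). When every probe set was tested, each of the 5 was called higher in both tumour comparisons, beside 23.1% of all kept probe sets called higher against pre-transformed cells and 19.4% against controls. Probe set 1451506_at moved furthest, from 0.3 to 0.7 on sorted arrays to 21.2, 30.7, 16.8 and 52.7 in tumours. All 5 probe sets ranked tumour 4 highest and tumour 3 lowest. They query the same transcripts, so they are not independent samples of the tumours.

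**Figure D2:**
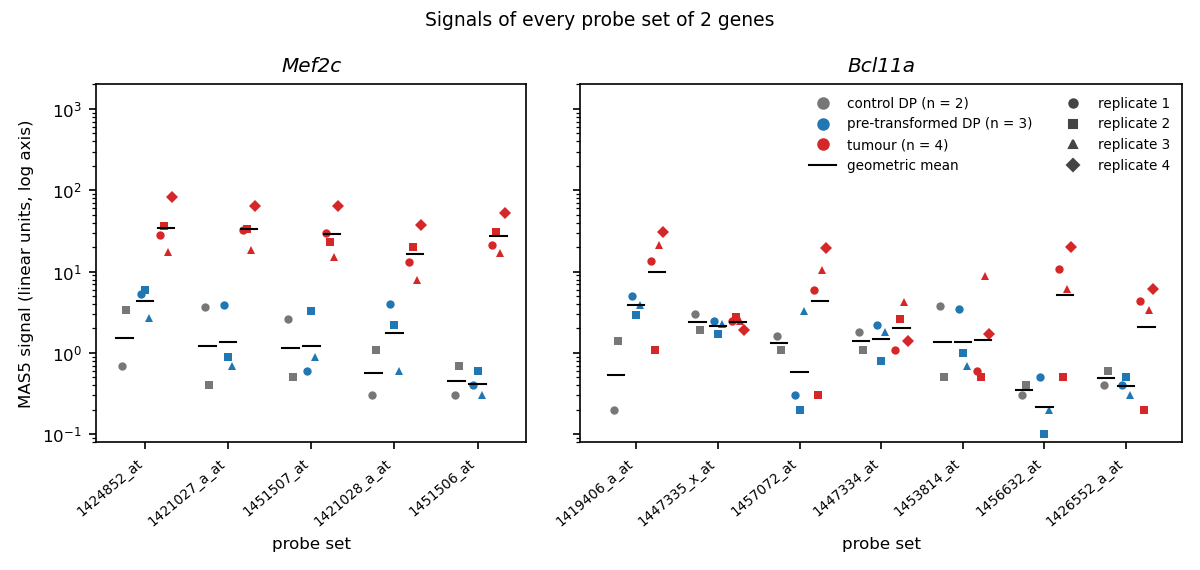
MAS5 signals (log axis) of the 5 Mef2c and 7 Bcl11a probe sets on each array, with points as arrays and black bars as geometric means. Every Mef2c probe set has all 4 tumours above all 5 sorted arrays, whereas with Bcl11a probe set 1419406_a_at tumour 2 reads 1.1, within the sorted range.

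Bcl11a, which B cells and early progenitors need, was uneven between tumours. Its tested probe set, 1419406_a_at, read 13.4, 1.1, 21.1 and 30.6 in tumours. Tumours 1, 3 and 4 were above the highest sorted signal of 5.0 and tumour 2 was within the sorted range, under its array's highest bacterial signal. The rise against controls (log2 difference 4.22 ± 1.35, limma adjusted p = 0.028) rested on controls at 0.2 and 1.4, and it was lost without control 1 (adjusted p = 0.231) or without tumour 1, 3 or 4 (0.0567 to 0.0633). Against pre-transformed cells the difference was 1.36 ± 1.19 (limma adjusted p = 0.353), and 2.42 with an adjusted p of 0.0297 without tumour 2. Probe sets 1456632_at, 1457072_at and 1426552_a_at also had tumour 4 highest and tumour 2 lowest, with 20.3, 19.4 and 6.1 in tumour 4 and 0.5, 0.3 and 0.2 in tumour 2. The remaining 3 probe sets read at most 8.9 anywhere.

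Hhex, a homeobox gene of stem cells, B cells and early thymocyte progenitors, read 4.7 and 1.0 in controls and 4.8, 1.0 and 1.1 in pre-transformed cells. Its tumours read 11.6, 7.4, 19.9 and 19.2. The groups did not overlap, and tumour 2 was again the lowest, under its array's highest bacterial signal of 7.8. The log2 difference was 2.95 ± 0.84 against pre-transformed cells and 2.63 ± 0.95 against controls (limma adjusted p = 0.0134 and 0.0446). The first was lost without pre-transformed 2 or 3 (adjusted p = 0.0511 and 0.0518). The second was lost without either control (0.0509 and 0.339), without pre-transformed 3 (0.053) and without tumour 1, 3 or 4 (0.0671 to 0.0867).

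Hoxa9 and Meis1 differed from each other. Hoxa9 read 7.3 and 1.1 in controls, 3.0, 3.4 and 1.4 in pre-transformed cells, and 20.7, 11.2, 9.6 and 16 in tumours with probe set 1421579_at. The groups did not overlap and tumour 1 was highest. The difference was 2.50 ± 0.75 against pre-transformed cells (limma adjusted p = 0.0171, or 0.068 without pre-transformed 3) and 2.28 ± 0.85 against controls (adjusted p = 0.0502). The second Hoxa9 probe set, 1455626_at, read 3.0 to 5.4 on sorted arrays and 1.4, 7.7, 6.3 and 1.8 in tumours, so that the pair of probe sets did not show the same pattern. Meis1, the usual partner of HOXA9, read 3.9 and 8.0 in controls, 12.2, 8.1 and 6.9 in pre-transformed cells and 1.4, 15.8, 6.5 and 4.3 in tumours with 1459423_at. These groups overlapped fully, with a difference of -0.82 ± 0.80 against pre-transformed cells (limma adjusted p = 0.403). The other 2 Meis1 probe sets read at most 3.6, and no value exceeded the highest bacterial signal of its array. With 1450992_a_at all 4 tumours (0.6 to 2.0) lay above all 5 sorted arrays (0.2 to 0.3), and with 1443260_at 3 tumours did.

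The tumours differed from each other, and myeloid and B cell markers differed between them too. Tumour 2 was the lowest of the 4 for Lyl1, Lmo2, Spi1, Bcl11a and Hhex. The 25 myeloid markers summed to 333 to 773 on sorted arrays, to 10022, 9914 and 9769 in tumours 1, 3 and 4, and to 247 in tumour 2. Against pre-transformed cells 9 of the 25 rose and none fell, beside 23.9% and 31.0% of all genes. Without tumour 2, 24 of the 25 rose. The granulocyte calprotectin gene S100a8 read 420.1, 2.0, 776.1 and 308.7 in tumours 1 to 4 and 0.2 to 15.2 on sorted arrays. Lysozyme Lyz2, of macrophages and granulocytes, read 1659.3, 3.1, 1376.4 and 1741.0. Itgam, from the same list, went the other way and was highest in tumour 2. It read 31.4, 113.2, 57.7 and 23.4 in tumours 1 to 4 and 4.4 to 53.4 on sorted arrays.

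B cell markers followed the same tumours. The 14 on the array summed to 5893, 294, 5645 and 2208 in tumours 1 to 4 and to 1901 to 3244 on sorted arrays. Ighm gave most of these sums. Against pre-transformed cells 5 of the 12 tested rose and 1 fell, beside 23.9% and 31.0% of all genes. The count of rises was 8 without tumour 2, 1 to 3 without a pre-transformed array, and 3 without tumour 1, 3 or 4. Ms4a1, which encodes CD20, read 197.9, 5.0, 138.9 and 269.7 in tumours and at most 8.9 in sorted cells, and Cd79a of the B cell receptor read 95.6, 0.5, 87.2 and 67.9. Cd79b and Vpreb1 went the other way and lay lower in all 4 tumours than on any sorted array. Pax5, the B lineage commitment factor, was under the median of the array in all 4 tumours. Of 25 myeloid and 14 B cell markers, none was at 0 on every tumour. The dendritic cell list had another order: its 9 genes summed to 1415, 1960, 1864 and 906 in tumours 1 to 4 and to 3855 to 4460 on sorted arrays. Tumour 2 was the highest tumour there, and Ccr9, a chemokine receptor gene that thymocytes also use, gave most of the sum, at 1211.3, 1903.1, 1623.9 and 569.9. Of the other genes in that list, Itgax (CD11c) read 58.1, 7.0, 64.7 and 64.5 in tumours and Irf8 read 91.6, 9.5, 110.6 and 181.3, both lowest in tumour 2, while Xcr1 was highest there at 12.8. The part of these cells in the tumour signals of Lyl1, Lmo2, Spi1, Bcl11a and Hhex was not tested.

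**Figure D3:**
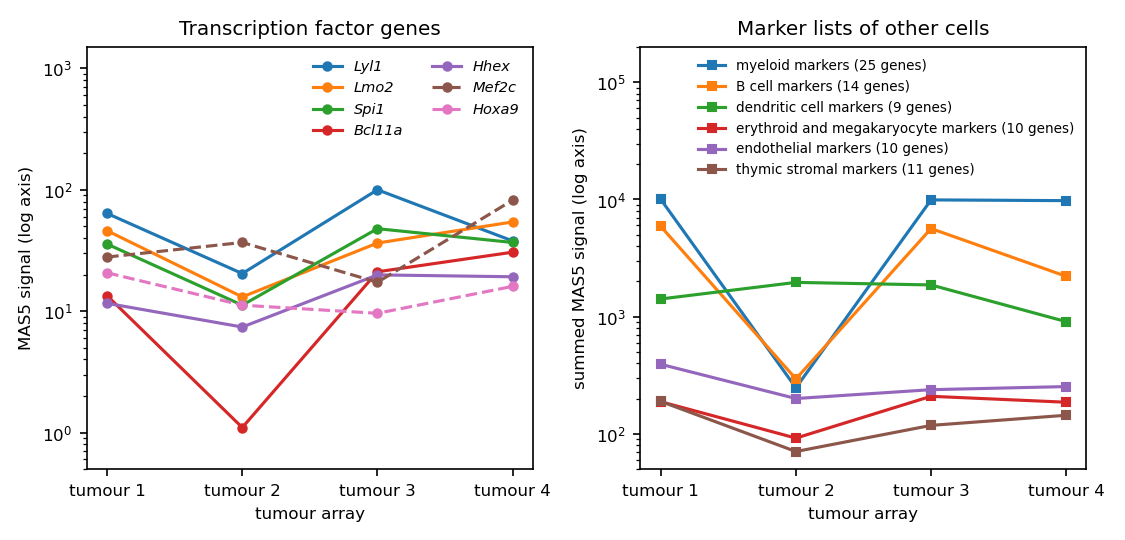
Left, MAS5 signal (log axis) of 7 genes in each of the 4 tumours; right, summed MAS5 signal (log axis) of 6 marker lists in the same tumours. Lines join values of 1 gene or list and mark no order in time. Tumour 2 is lowest for Lyl1, Lmo2, Spi1, Bcl11a and Hhex (solid lines) and for 5 of the 6 marker lists, but highest for the dendritic cell list (1960), while Mef2c and Hoxa9 (dashed lines) are lowest in tumour 3.

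In tumour 2 the myeloid and B cell sums were both under those of every sorted array. The B cell sum of the sorted cells was mostly Ighm (1552.8 to 2778.9), with Cd79b at 195.8 to 253.9 and Vpreb1 at 60.4 to 181.0. In tumour 2 these 3 genes read 238.7, 1.3 and 1.5, while Ms4a1 read 5.0 there against 1.5 to 8.9 on sorted arrays. The B cell sum is thus no measure of B cells alone. In tumour 2 Mef2c read 36.8, against at most 5.9 on any sorted array, and its array's 65th percentile was 28.6. Lyl1 read 20.4 in that tumour against at most 13.6, Hoxa9 11.2 against at most 7.3, and Lmo2 13.1 against at most 10.4. Spi1 read 11.2 against at most 10, and Hhex 7.4 against at most 4.8. Bcl11a, at 1.1, was not above the sorted arrays. Set against the highest bacterial signal of that array, 7.8, Mef2c, Lyl1, Lmo2, Hoxa9 and Spi1 were above it and Hhex and Bcl11a were not. This is 1 tumour, so there is no replicate of it. Erythroid and megakaryocyte markers summed to 91.9 in tumour 2 and 186 to 209 in the others, and endothelial markers to 200 against 238 to 392.

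The genes whose log2 profiles over the 9 arrays lay nearest to each member, after centring each on its own mean, were named by the smallest root-mean-square difference. They were picked for matching a member, so a shared order of the tumours follows from the choice. For Lyl1 they were Csf2rb2, Ackr2 and Tspan33 (0.68 to 0.74). For Lmo2 they were Htra1, Hpse and Csf2rb (0.57 to 0.62). Csf2rb, a subunit shared by the receptors for GM-CSF, interleukin 3 and interleukin 5, read 64.3, 8.4, 76.1 and 72.2 in tumours. The nearer Hpse read 38.7, 37.6, 53.5 and 74.0 there and at most 11.3 on sorted arrays, so its tumour 2 value was not far below the others. For Bcl11a they were Cd300lf, Gas6 and Ms4a4c (0.59 to 0.74), and Ms4a4c read 60.1, 1.3, 86.1 and 123.8. For Spi1 the nearest were Clstn1, Ckap4 and Zbtb10 (0.27 to 0.29), and for Hhex Prkar1b, Gzmb and Nexn (0.36 to 0.57). Mef2c was nearest to Scd1, 4930555F03Rik and Prkaa2 (0.56 to 0.73). Scd1, a fatty acid desaturase gene, read 55.6, 90.9, 59.6 and 128.0 in tumours against 2.6 to 6.9 on sorted arrays, with tumour 2 second highest as for Mef2c. For Hoxa9 they were Cend1, Nfam1 and Nrp2 (0.41 to 0.56).

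Genes of the proteins with which LYL1, TAL1 and LMO2 work were, in contrast, mostly bright in DP cells and lower in tumours. Of 17 partners and relatives on the array, 13 were tested. In tumours against pre-transformed cells 2 rose and 9 fell, beside 23.9% and 31.0% of all genes. Their median log2 change was -1.30, beside -0.12 over all genes. None was called before transformation, where 2 of the 13 had an unadjusted limma p under 0.05. These counts use 1 probe set for each gene. With every kept probe set tested, the rises in tumours against pre-transformed cells numbered 5, beside 23.1% of all kept probe sets. Without probe sets that carry a suffix for possible cross-hybridisation, 1 rose and 5 fell. Ldb1, the scaffold that LMO2 binds, read 603.7 and 549.4 in controls, 715.6, 606.4 and 640.9 in pre-transformed cells and 140.2, 173.7, 440.6 and 149.9 in tumours. All tumours were lower than all sorted arrays, tumour 3 least so (3.27-fold lower than pre-transformed cells, limma adjusted p = 0.00227). Cbfa2t3 (ETO2), a corepressor of the complex, had the largest fall, with geometric means of 344 and 20.3 (at least 9.57-fold lower, limma adjusted p = 5.72e-05). Runx1, which binds beside the complex, was 4.41-fold lower (410 to 92.9, limma adjusted p = 0.000568).

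**Figure D4:**
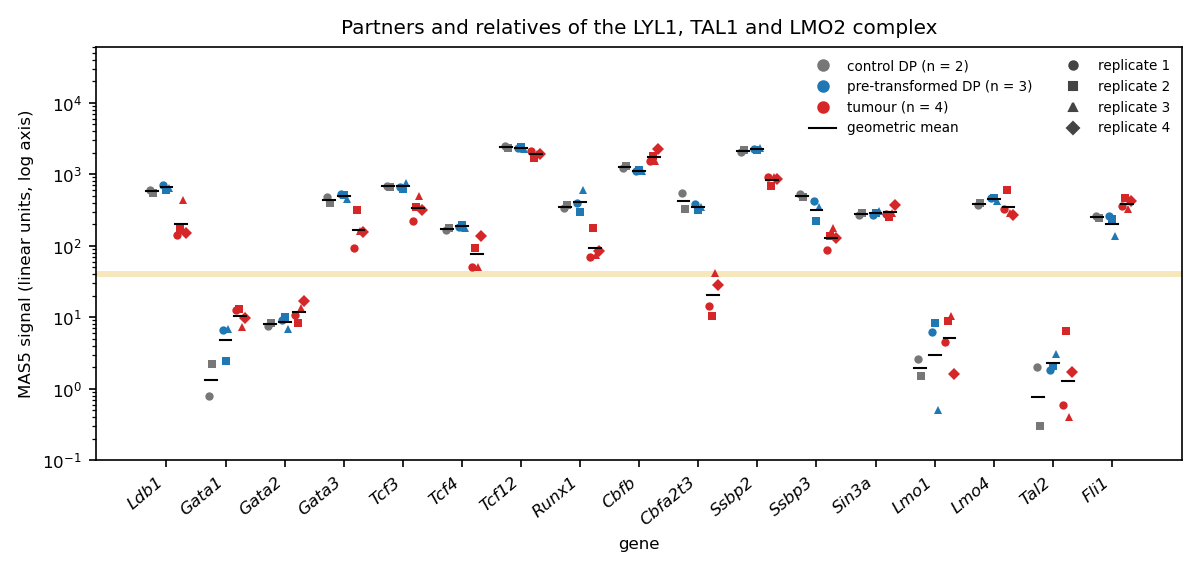
MAS5 signals (log axis) of 17 partners and relatives of the LYL1, TAL1 and LMO2 complex on each array, with points as arrays and black bars as geometric means. The band spans the 3 groups' 65th percentile levels. Ldb1, Gata3, Tcf3, Runx1 and Cbfa2t3 lie lower in all 4 tumours than in any sorted sample, and Gata1, Gata2, Lmo1 and Tal2 stay at or under 16.8 everywhere.

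Members of the complex that T cells use also fell. Gata3, the GATA factor of T cells, was 3.02-fold lower in tumours than in pre-transformed cells (499 to 165, limma adjusted p = 0.00256), and the E protein gene Tcf3, whose product pairs with LYL1 and TAL1, was 2.02-fold lower (674 to 333, adjusted p = 0.00465). The GATA factors used in progenitors stayed dim. Gata2 read 6.9 to 10.2 on sorted arrays and 8.2 to 16.8 in tumours, and Gata1 at most 6.8 and 13.2. The rises were those of Cbfb, the partner of RUNX proteins (1.55-fold, limma adjusted p = 0.00431), and of the ETS gene Fli1 (1.91-fold, adjusted p = 0.00689). Neither rise was called when arrays were centred on their medians.

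In the HOX and TALE network, 11 of 20 genes on the array were tested. In tumours against pre-transformed cells 1 rose and 4 fell, beside 23.9% and 31.0% of all genes (median log2 change -0.55). Pbx2, which encodes a TALE partner of HOX proteins, fell 5.79-fold (747 to 129, limma adjusted p = 7.45e-05). Hoxa7, a neighbour of Hoxa9 in the HOXA cluster, fell from 21.6 to 32.3 on sorted arrays to 1.8 to 9.9 in tumours (log2 change -3.08 ± 0.63, limma adjusted p = 0.00238, both groups dim). Hoxa5 rose by 0.97 ± 0.30 (limma adjusted p = 0.0211), a call lost with median centring, with the floor of 40, with replicate number as a block, and without pre-transformed 1 or 3. Its probe set, 1443803_x_at, carries a suffix for possible cross-hybridisation, and against controls it was not called (adjusted p = 0.142). The count of falls was 2 without pre-transformed 2 and 7 without tumour 3. With every kept probe set tested, there were 2 rises and 7 falls. Hoxa10 read at most 2.9 on any array. Before transformation the network had 1 call, Kmt2a (MLL1), an activator of HOXA genes, which was 1.56-fold higher (252 to 393, limma adjusted p = 0.0495). That call was lost without any single array.

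Among relatives of MEF2C and SPI1, 16 of 19 were tested. In tumours against pre-transformed cells 2 rose and 6 fell, beside 23.9% and 31.0% of all genes (median log2 change -0.32). The count of rises was 4 without tumour 2, and 1 without pre-transformed 1 or 2 or tumour 1 or 3. Mef2d and Mef2a, named after their values were seen, were bright in DP cells, with pre-transformed means of 1191 and 1079. Mef2d fell 3.70-fold in tumours (limma adjusted p = 0.000111), and Mef2a was at 792 there (adjusted p = 0.0787). Hdac7, a histone deacetylase that binds MEF2 proteins, fell 5.46-fold (1765 to 323, limma adjusted p = 0.000363). The ETS gene Etv6 fell at least 3.76-fold (limma adjusted p = 0.0014), and the ETS gene Elf4 rose by 2.48 ± 0.79 (adjusted p = 0.0222, both groups dim). Spib, the closest relative of Spi1 and a gene of B and dendritic cells, read 51.6, 0.8, 77.6 and 82.0 in tumours and 6.1 to 13.0 on sorted arrays. Tumour 2 was thus its lowest array of all 9 (limma adjusted p = 0.331 against pre-transformed cells).

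Other T-ALL oncogenes moved both ways, and of 22 on the array 11 were tested. In tumours against pre-transformed cells 2 rose and 7 fell, beside 23.9% and 31.0% of all genes (median log2 change -0.73). With every kept probe set tested, the rises numbered 5. Myc read 116.2, 53.3 and 67.8 in pre-transformed cells and 1205.7, 1486.1, 1722.5 and 1192.2 in tumours. All 4 tumours were far above the sorted arrays (18.5-fold, limma adjusted p = 7.56e-06). Notch1, the receptor most often mutated in T-ALL, was at least 12.9-fold lower (462 to 21.0, limma adjusted p = 5.04e-06), and Notch3 at least 2.89-fold lower (adjusted p = 0.00751). The oncogenes Tlx1 and Tlx3, which encode homeobox factors, read at most 14.6 on any array. Before transformation 1 gene was called, Zeb1, at 1.5-fold (747 to 1120, limma adjusted p = 0.0336), a call lost without either control and without pre-transformed 1 or 3.

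Genes that mark stem and early progenitor cells moved both ways. Of 22 on the array 13 were tested, and 4 rose and 4 fell in tumours against pre-transformed cells, beside 23.9% and 31.0% of all genes. Their median log2 change was 0.34, beside -0.12 over all genes. Their summed signal was 7071, 5630, 7160 and 7084 in tumours 1 to 4 and 4813 to 6515 on sorted arrays, so that tumours 1, 3 and 4 were above all sorted arrays. Sox4 gave most of these sums, at 3495.0 to 4342.9 on sorted arrays and 4668.3 to 5570.9 in tumours. Of the 22 genes, 11 lay under the array median in all 4 tumours. The count of rises was 1 without pre-transformed 3 and 2 without pre-transformed 1 or tumour 4. Il7r, the receptor for interleukin 7, read 612.1, 31.5, 140.4 and 41.0 in tumours and at most 11.0 on sorted arrays (at least 2.35-fold, limma adjusted p = 0.00448). Flt3, a progenitor cytokine receptor, read 20.0, 12.9, 12.3 and 18.7 in tumours and at most 6.4 on sorted arrays (log2 change 2.77 ± 0.81, limma adjusted p = 0.0156, both groups dim). Angpt1 fell at least 2.92-fold (limma adjusted p = 9.82e-05). Kit and Cd34, 2 surface markers of progenitors, were under the array median in all 4 tumours. Cd44, which marks early thymocytes and activated T cells, was 8.99-fold higher already before transformation (61.3 to 551, limma adjusted p = 0.0015).

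Of the factors of T lineage commitment, all 15 on the array were tested. Against pre-transformed cells 2 rose and 7 fell in tumours (median log2 change -0.39), and 1 rose without either control, pre-transformed 1 or 3, or tumour 1 or 4. Over all genes 23.9% rose and 31.0% fell. These counts use 1 probe set for each gene. With every kept probe set tested, the rises numbered 8, beside 23.1% of all kept probe sets, so other probe sets of these genes rose. Runx3, of the CD8 lineage, rose at least 3.66-fold (limma adjusted p = 0.000729), and the falls of Runx1 and Gata3 are those given for the complex.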

How the data were processed

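The values used are intensity signals deposited by the authors, on a linear scale and rounded to 0.1, made with MAS5 per the submitters' processing notes. The values show that arrays were scaled to a mean of 100 after trimming 2% of probe sets at each end. Calls of presence were not used here. The number of arrays limits the precision. Gene names came from the platform annotation: 34945 probe sets named 1 gene, 932 several and 9160 none.

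Signals were taken to log2, with 218 zeros set to 0.1, and not normalized further. Probe sets at or above their array's median on at least 2 arrays were kept, and the brightest of a gene's kept probe sets stood for it. In R 4.3.3, limma 3.58.1 (lmFit, eBayes with trend) was run over 11644 genes, and a gene was called where its p, adjusted over them by Benjamini-Hochberg, was under 0.05. Tumour comparisons used all 9 arrays in the fit, and the comparison before transformation used the 5 sorted arrays. Replicate numbers name different mice, and same-numbered samples did not deviate together (r from -0.024 to 0.085), so no pairing was used. A fold against a dim group is given as at least the bright mean over the dim group's 65th percentile level.

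A rule named from each list the 3 called genes with the largest change in a comparison, and for each member the 3 genes with the nearest profile. Other list genes in the text, such as Tcf3, Fli1, Kit, Pax5 and Tlx1, fall outside that rule. They are examples and not a ranked choice. The members and lists were chosen with earlier results of these data known. In data simulated with the same spread in all groups, 76.3% of genes changed by a log2 size of 2 were recovered for tumours against pre-transformed cells. Of those changed by 1, 37.2% were recovered, and 4.13% of calls were false. The changed genes were drawn at any brightness, so these shares do not state the recovery of dim genes. Alternatives were other filters, normalizations, floors and offsets, other choices of probe sets, other variance settings and arrays left out. Figures were drawn with matplotlib 3.10.9.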

Additional observations from a re-analysis of the deposited data

Results flagged for a closer look

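Of 37 sets of 4 tumour values examined, 3 held a lowest value far from the others, and in each it was that of tumour 2. About 1 in 20 such sets would be marked by chance alone. The summed myeloid markers were 247 in tumour 2 and 9769 to 10022 in the other tumours. The summed erythroid and megakaryocyte markers were 91.9 in tumour 2 and 186 to 209 in the others. The summed stem and progenitor genes were 5630 in tumour 2 and 7071 to 7160 in the others. Sox4 gave most of that sum, at 4668.3 in tumour 2 and 4876.1 to 5570.9 in the others. Other genes of the list were lowest in tumour 2 too. Cd44 read 601.3 there and 985.0 to 1308.2 in the others, and Il7r 31.5 and 41.0 to 612.1. None of the single transcription factor genes was marked.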

How the results depend on the processing

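The count of the 10 genes called higher against pre-transformed cells was 5. It was 3 with a stricter filter and 0 with signals under 40 set to 40, and it ranged from 2 to 7 when single arrays were left out. The stricter filter left Hhex and Hoxa9 untested, while Lmo2, Mef2c and Spi1 kept their calls under it. Against controls the count was 6, and it was 0 with that floor, 3 with replicate number as a block, and 4 to 6 when single arrays were left out. Against controls, Bcl11a was not called with quantile normalization (limma adjusted p = 0.0746) or with only tumours and controls in the fit (0.067). Hhex was not called there with quantile normalization (0.116), median centring (0.0651) or array weights (0.0695). Hoxa9 was called there with an offset of 16 (0.0371), the mean of probe sets (0.0494) or no trend (0.0358). The block gave 4 against pre-transformed cells. Under it Spi1 was not called in either tumour comparison (limma adjusted p = 0.0617 and 0.0564), nor were Bcl11a (0.129) and Hhex (0.0833) against controls. It changed no other call of the 10 genes. Under the floor of 40 both groups of most of these genes have the same value, by its construction. The cause of the other changes was not tested. No gene of the 10 was called lower in a tumour comparison, or either way before transformation, under any setting run. The calls of Lmo2 and Mef2c in tumours held under every setting run except the floor of 40. Counts over all genes moved too: before transformation 129 higher and 61 lower became 77 and 113 with median centring, 8 and 6 with the floor of 40, 57 and 17 with no filter, and 1 and 0 without a trend. Against controls 2387 higher and 2936 lower became 1253 and 4132 with median centring, and the higher calls numbered 1177 without control 1 and 1491 without control 2. With median centring the tumour calls were 1877 higher and 4279 lower against pre-transformed cells (2785 and 3607 without it), and the median log2 change over all genes tested was -0.38 in place of -0.12, and -0.46 in place of -0.08 against controls. Most of these signals are dim, and background is higher on tumour arrays, so that signal over background limits every rise from a dim level.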
